A study of Mus musculus with 4 samples.

Results

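Penk encodes proenkephalin, the precursor protein from which enkephalins, short opioid peptides, are cut. It was followed here in single T cells of mouse glioma and of healthy mouse brain. Penk was 1 of the 27998 genes of the count tables (ENSMUSG00000045573), and it was chosen because its summed level differed between libraries in regulatory and in conventional CD4 T cells. Those differences are therefore given below as a description, with no test. The 4 libraries held immune cells of C57BL/6 mice. In 3 of them, cells of the glioma-005 line had been implanted in the hippocampus of mice 8 to 12 weeks old, antibodies were injected intraperitoneally starting 7 days later, and brains were taken on day 35. The first of these groups received the anti-CTLA-4 antibody 9H10, raised in Syrian hamster, together with the CD4-depleting antibody GK1.5. The second received 9H10 without GK1.5, and the third group the rat IgG2a isotype control LTF-2. The fourth library came from healthy brain with no implanted tumor. Each tumor library pooled 3 tumors. The age of the healthy mice and the number pooled are not given separately in the sources used here. Each group was thus 1 library, so no comparison between groups has a replicate and none carries a p-value. The control antibody was of another host species than 9H10, and the implanted tumor was 1 cell line.

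Enkephalins act on delta and mu opioid receptors and are best known from neurons, where the precursor is cut at pairs of basic residues by prohormone convertases and trimmed by carboxypeptidase E. Activated T cells can also transcribe Penk, and in mice regulatory T cells of several tissues have been described to carry its mRNA. An mRNA count does not say whether the peptide was cut or released.

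Penk lies on the minus strand of chromosome 4 in mm10, from 4133531 to 4138819, in the GENCODE vM21 annotation. The 804 coding bases of its 2-exon transcript hold 7 runs that spell an enkephalin, 6 for Met-enkephalin and 1 for Leu-enkephalin, and all 7 are in exon 2. They are shown because they are what makes this transcript an enkephalin source. Each is printed 5′ to 3′ with its 15 coding bases in capitals and the neighbouring codon pairs, where most convertase cutting sites lie, in lower case.
Met-enkephalin run 1: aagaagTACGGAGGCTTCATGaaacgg
Met-enkephalin run 2: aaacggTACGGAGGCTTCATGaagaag
Met-enkephalin run 3: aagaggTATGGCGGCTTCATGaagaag
Met-enkephalin run 4: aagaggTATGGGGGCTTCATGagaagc
Met-enkephalin run 5: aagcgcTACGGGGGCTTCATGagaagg
Leu-enkephalin run 6: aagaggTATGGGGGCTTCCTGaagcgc
Met-enkephalin run 7: aaaagaTACGGGGGCTTTATGcggttc
The first run with its neighbours spans chr4:4134328-4134354 and the last spans chr4:4133842-4133868. The libraries read transcripts near their 3′ end, so a Penk count stands for the gene as a whole and not for any 1 run. A830012C17Rik, on the plus strand, overlaps the other end of Penk, and it is not a row of the count tables.

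The 4 immune fractions of each group, microglia, myeloid cells, T cells and the rest, had been sorted and mixed in equal parts, so shares of T cells among all cells reflect that mixing. After filters, 3706 cells of the library with anti-CTLA-4 and CD4 depletion remained, with 1763 of the anti-CTLA-4 library, 1434 of the IgG library and 1388 of healthy brain. T cells were taken as cells with a UMI (a counted transcript molecule) of Cd3e, Cd3d, Cd3g or Trac inside a cluster rich in such cells. There were 1205 with CD4 depletion, 548 with anti-CTLA-4, 418 with IgG and 142 in healthy brain. Cd3e alone was found in 78.4% to 97.2% of them. Their median depth was 4023 UMIs a cell with CD4 depletion, and it lay between 5393 and 6087 in the other 3 libraries. Cd4, the coreceptor that GK1.5 binds, had a UMI in 1.58% of T cells with CD4 depletion, against 35.0% with anti-CTLA-4, 35.6% with IgG and 31.0% in healthy brain. Foxp3, the transcription factor that defines regulatory T cells, had a UMI in 12.0% of T cells with CD4 depletion, 18.6% with anti-CTLA-4, 29.4% with IgG and 1.41% in healthy brain.

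Nearly all Penk UMIs were in T cells. Of 927 Penk UMIs in 109 cells, 905 UMIs, or 97.6%, were in 98 T cells. All T cells together had 70 Penk UMIs with anti-CTLA-4 and CD4 depletion, 610 with anti-CTLA-4, 225 with IgG and none in healthy brain. As CPM, the UMIs divided by all UMIs of the same cells and scaled to 1e6, that came to 12.8 with CD4 depletion, 169 with anti-CTLA-4, 78.6 with IgG and 0 in healthy brain. The share of T cells with a Penk UMI was 2.24% with CD4 depletion, 8.58% with anti-CTLA-4 and 5.74% with IgG. In healthy brain it was 0 of 142 T cells, and 0 counts allow a share of up to 2.11%. The anti-CTLA-4 library was the highest and healthy brain the lowest by each of these measures. The healthy brain T cells held 2 cells with a Foxp3 UMI and were otherwise largely of another kind, as described below, so tumor and T cell composition cannot be told apart in that contrast.

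Outside the T cells Penk was near 0. It was found in 1 of 2501 cells with CD4 depletion (0.0400%), 6 of 1215 with anti-CTLA-4 (0.494%), 2 of 1016 with IgG (0.197%) and 2 of 1246 in healthy brain (0.161%). The median depth of these cells was 4689 UMIs with CD4 depletion, 5733 with anti-CTLA-4 and 6054 with IgG, each above that of the T cells of the same library. In healthy brain it was 4947, below the 6087 of its T cells. The highest of them, in the anti-CTLA-4 library, had 10 Penk UMIs and lay in a cluster led by Ly6i, Tgm2 and Arg1, genes of activated macrophages. It also carried 8 UMIs of Cd8a and Cd8b1 and 3 of the CD3 genes or Trac. The 1 cell with CD4 depletion had 2 Penk UMIs and 10 UMIs of the CD3 genes or Trac. Such cells are counted outside the T cells because of their cluster, and whether they were doublets was not tested. B-like cells, whose cluster was also led by hemoglobin genes and which should lack Penk, gave the level that free RNA can leave: 0 of 136 cells with CD4 depletion, 2 of 185 with anti-CTLA-4, 0 of 71 with IgG and 0 of 109 in healthy brain. Their median depth was between 2753.5 and 5073 UMIs. Their share of 1.08% with anti-CTLA-4 had an exact (Clopper-Pearson) 95% interval of 0.131% to 3.85%. Of 24 clusters of all cells, 13 held no Penk UMI at all, among them the microglia-like cluster, which held 705 of the 1388 healthy brain cells.

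Within the T cells the counts were concentrated in few cells. A single UMI was seen in 45 of the 109 cells with Penk, while 23 cells with at least 10 UMIs held 734 UMIs, or 79.2% of all. Of these 23 cells, 22 were T cells. None was in the library with CD4 depletion, 17 were in the anti-CTLA-4 library, 5 in the IgG library and none in healthy brain. Among the 22 T cells, 15 carried a Cd4 UMI and no Cd8 UMI, 5 carried neither and 2 carried Cd8. Foxp3 had a UMI in 9 of the 22 and none in 13. Tnfrsf4, which encodes the costimulatory receptor OX40, had a UMI in 21 of the 22. It was common with or without Penk, so nothing is read from that count. Of all T cells with a Foxp3 UMI, 92.2% had it with anti-CTLA-4 and 85.4% with IgG. Of the conventional CD4 T cells defined below, 70.0% had it with anti-CTLA-4 and 73.0% with IgG. Because Penk UMIs come in such clumps, the intervals below, which cover counting error only, are narrower than the true uncertainty.

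**Figure D1:**
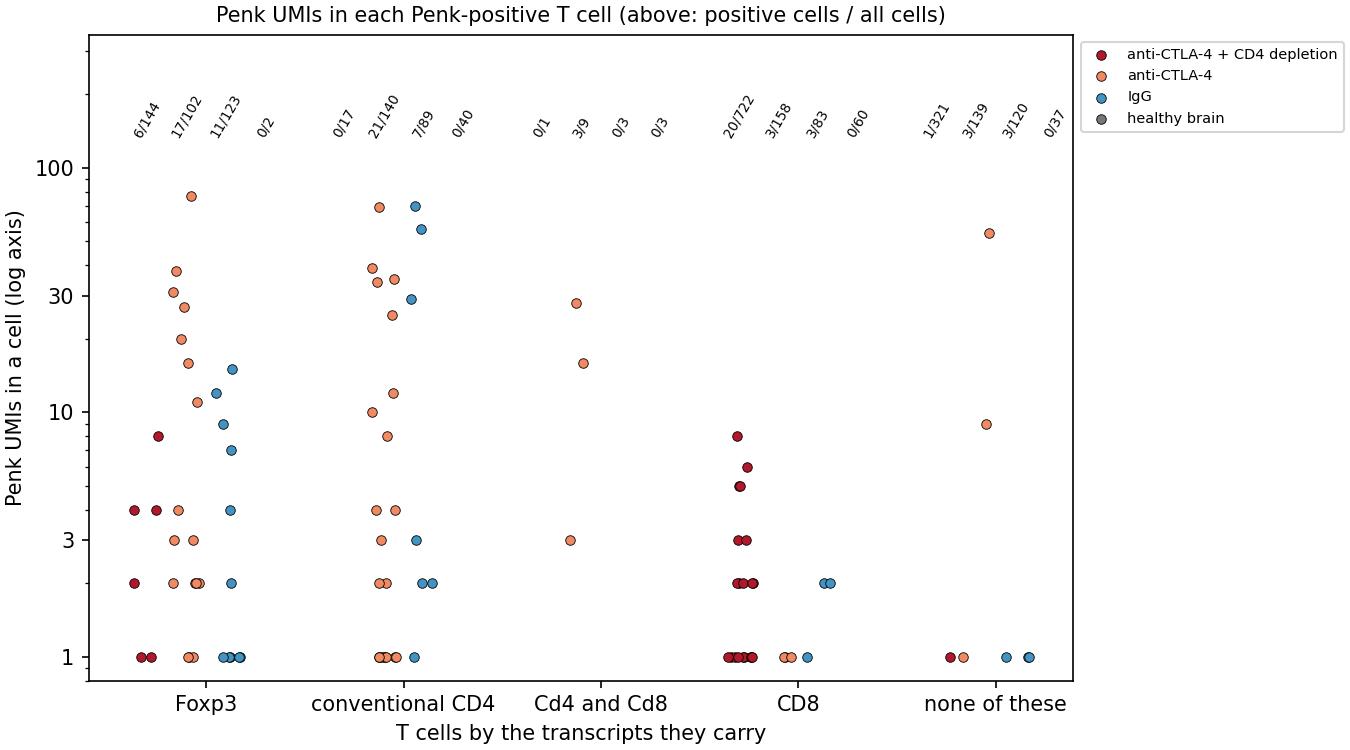
Penk UMIs in each T cell that has any (log axis), by the transcripts the cell carries and by library; the fractions above the points are cells with Penk over all cells of that kind. The anti-CTLA-4 library has 17 cells at or above 10 UMIs and the IgG library 5, while the library with CD4 depletion reaches at most 8 and healthy brain has no point.

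T cells with a Foxp3 UMI, here called Foxp3 T cells, numbered 144 with CD4 depletion, 102 with anti-CTLA-4, 123 with IgG and 2 in healthy brain. They had 20 Penk UMIs in 6 cells with CD4 depletion, 241 UMIs in 17 cells with anti-CTLA-4, 54 UMIs in 11 cells with IgG and none in the 2 cells of healthy brain. The share of cells with Penk was 4.17% (95% interval 1.54% to 8.85%) with CD4 depletion, 16.7% (10.0% to 25.3%) with anti-CTLA-4 and 8.94% (4.55% to 15.4%) with IgG. The interval of the anti-CTLA-4 library overlapped that of IgG and not that of CD4 depletion. The level was 30.5 CPM with CD4 depletion, 434 CPM with anti-CTLA-4 and 69.0 CPM with IgG. The CPM ratio of anti-CTLA-4 to IgG was 6.29 (95% interval for counting error 4.67 to 8.61). The ratio of CD4 depletion to anti-CTLA-4 was 0.0702 (0.0421 to 0.111), and that of CD4 depletion to IgG was 0.442 (0.250 to 0.750). The 3 ratios share libraries and are not independent.

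A size rule that needs no test was applied to all genes for scale. It asks for 50 or more UMIs over the pair of libraries, for detection in 10% or more of the cells on the higher side, and for a CPM ratio of 2 or more. In Foxp3 T cells it was passed by 97 of 3480 genes, 2.79%, for anti-CTLA-4 against IgG, and Penk was 1 of the 29 that were higher (0.833%). For CD4 depletion against anti-CTLA-4 it was passed by 125 of 3141 genes, 3.98%, with Penk among the 68 that were lower (2.16%). For CD4 depletion against IgG, 6.02% of genes passed and Penk did not, since it was found in under 10% of cells of both. As Penk was picked for these differences, nothing is read from its place among them.

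The size of the Foxp3 T cell ratio changed with how these cells were drawn. Without the cell with most Penk UMIs in each library the levels were 18.5 CPM with CD4 depletion, 300.0 with anti-CTLA-4 and 50.3 with IgG, and the anti-CTLA-4 to IgG ratio was 5.97. In the regulatory T-like sub-cluster, which also takes in cells without a Foxp3 UMI, the ratio was 1.92. There Penk had 256 UMIs in 21 of 117 cells (445 CPM) with anti-CTLA-4 and 125 UMIs in 13 of 116 cells (231 CPM) with IgG. The difference between the 2 definitions comes to a large part from 1 IgG cell, which had 70 Penk UMIs, 21 Tnfrsf4 UMIs, 3 Il2ra UMIs and no Foxp3 UMI. That cell counts as conventional CD4 by its transcripts and as regulatory T-like by its cluster. With the top cell of each library left out of the sub-cluster the ratio was 3.07 (2.25 to 4.23). By these definitions the level was higher with anti-CTLA-4 than with IgG by 1.92 to 6.29 times.

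The Foxp3 T cells of the library with CD4 depletion were of another make-up. Of its 144 cells, 76 also had a Cd8a or Cd8b1 UMI, against 12 of 102 with anti-CTLA-4 and 9 of 123 with IgG. Foxp3 T cells without Cd8 had 17 Penk UMIs in 4 of 68 cells (64.3 CPM) with CD4 depletion, 239 in 16 of 90 (515 CPM) with anti-CTLA-4 and 54 in 11 of 114 (82.9 CPM) with IgG. In that subset the ratio of CD4 depletion to anti-CTLA-4 was 0.125 (0.0715 to 0.204), and that of CD4 depletion to IgG was 0.775, with an interval of 0.421 to 1.36 that includes 1. Foxp3 T cells that did carry Cd8 had Penk in 2 of 76 cells with CD4 depletion, 1 of 12 with anti-CTLA-4 and 0 of 9 with IgG. The clusters showed the same split. Most Foxp3 T cells of the library with CD4 depletion, 106, fell into a sub-cluster led by Gzmb, Foxp3 and Klrg1, and 12 into the regulatory T-like one. With anti-CTLA-4, 21 fell into the Gzmb-led and 74 into the regulatory T-like sub-cluster, and with IgG 24 and 82. In the Gzmb-led sub-cluster Penk was found in 1 of these Foxp3 T cells with CD4 depletion, 0 with anti-CTLA-4 and 0 with IgG. In the regulatory T-like one it was found in 1 with CD4 depletion, 16 with anti-CTLA-4 and 11 with IgG. Over all Foxp3 T cells, a lower Penk level per cell with CD4 depletion and a smaller part of regulatory T-like cells cannot be told apart.

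Conventional CD4 T cells, defined by a Cd4 UMI without Foxp3, Cd8a or Cd8b1, numbered 17 with CD4 depletion, 140 with anti-CTLA-4, 89 with IgG and 40 in healthy brain. Penk was not seen in the 17 cells with CD4 depletion, a number that allows a share of up to 17.6%. It had 255 UMIs in 21 cells with anti-CTLA-4, 163 UMIs in 7 cells with IgG and none in healthy brain, where 0 of 40 allows up to 7.50%. The shares were 15.0% (9.53% to 22.0%) with anti-CTLA-4 and 7.87% (3.22% to 15.5%) with IgG, and these intervals overlap. The levels were 314 CPM with anti-CTLA-4 and 239.7 CPM with IgG, a ratio of 1.31 (1.07 to 1.60). By the size rule 1.51% of 3645 genes passed in this comparison, and Penk was not among them. Against healthy brain the IgG level was at least 17.9-fold higher, taking 3 counts in the healthy brain library as its floor. The exact interval of the ratio for 163 against 0 UMIs, which uses no floor, had a lower limit of 14.4. The bound was 9.90 without the cell with most Penk UMIs, 4.80 without the regulatory T-like and type 2 lymphoid-like cells described below, and 2.73 with cells thinned to 1000 UMIs. In this comparison 20.7% of genes passed the size rule, 17.4% as higher with IgG. Of the 40 healthy brain cells of this gate, 35 were in the naive T-like sub-cluster described below, against 4 of the 89 with IgG. Tumor and kind of T cell therefore cannot be told apart in this contrast.

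The IgG value of conventional CD4 T cells rested on 3 cells. They held 70, 56 and 29 of its 163 Penk UMIs, and the other 4 positive cells held 8 in all. The cell with 70 UMIs was the regulatory T-like cell described above. The cell with 56 UMIs had 12 UMIs of Gata3, the factor of type 2 lymphocytes, and belonged to the type 2 lymphoid-like sub-cluster, whose leading genes Il4, Il1rl1, Il13 and Il5 are type 2 cytokines and the IL-33 receptor. In the anti-CTLA-4 library, 18 of the 21 positive cells and 249 of 255 UMIs were in 1 other sub-cluster, the Ccl1-led one described next. Leaving out the regulatory T-like and type 2 lymphoid-like cells of this gate gave 250 UMIs in 116 cells with anti-CTLA-4 and 34 UMIs in 70 cells with IgG, and the ratio became 5.44 (3.79 to 8.03). This choice was made after seeing the data, and it took out the IgG cells with 70 and 56 UMIs. Of the 34 IgG UMIs left, 29 were in 1 cell, which the interval does not cover. So the ratio in conventional CD4 T cells was above 1 under both choices, but its size moved by more than 4-fold with 2 groups of a few cells.

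**Figure D2:**
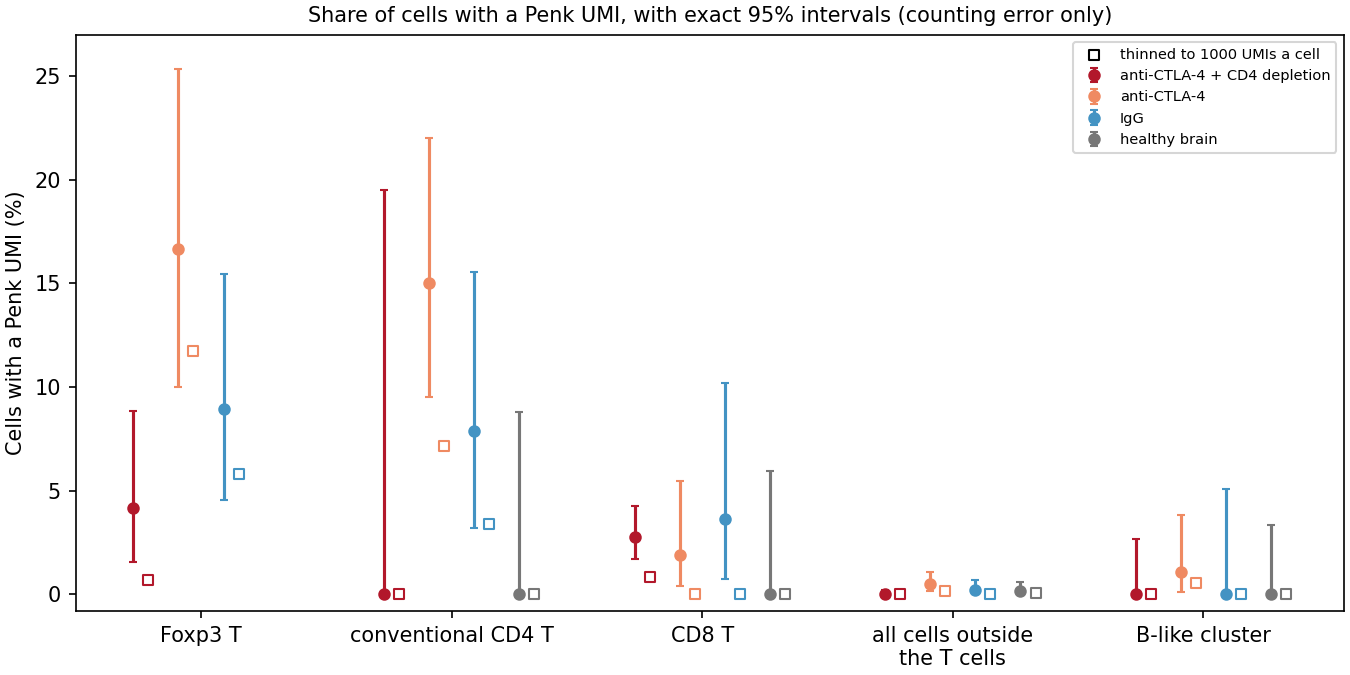
Share of cells with a Penk UMI (filled points, exact 95% intervals) and the same after every cell was thinned to 1000 UMIs (open squares), by kind of cell and library; kinds with under 10 cells in a library are not drawn. Foxp3 and conventional CD4 T cells of the anti-CTLA-4 library are at 16.7% and 15.0%, while cells outside the T cells stay under 0.5%.

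CD8 T cells, with a Cd8a or Cd8b1 UMI and none of Cd4 or Foxp3, carried little Penk in every library. There were 49 UMIs in 20 of 722 cells with CD4 depletion, 3 UMIs in 3 of 158 with anti-CTLA-4, 5 UMIs in 3 of 83 with IgG and none in 60 of healthy brain. No CD8 T cell had more than 8 UMIs. The levels were 13.6 CPM with CD4 depletion, 2.14 with anti-CTLA-4, 7.37 with IgG and 0 in healthy brain. The shares of 2.77% with CD4 depletion, 1.90% with anti-CTLA-4 and 3.61% with IgG had overlapping intervals, and all 3 also overlap that of B-like cells with anti-CTLA-4. The CPM ratio of CD4 depletion to anti-CTLA-4 was 6.37, with an interval of 2.06 to 31.9 because 1 side had 3 counts, and that of CD4 depletion to IgG was 1.85 (0.742 to 5.95). By the size rule 2.71% of genes passed for CD4 depletion against anti-CTLA-4 in CD8 T cells, and Penk, found in under 10% of cells, did not. In the library with CD4 depletion the CD8 T cells, 722 of its 1205 T cells, held 49 of its 70 T cell UMIs, but their level of 13.6 CPM was below the 30.5 CPM of its Foxp3 T cells. With anti-CTLA-4 the CD8 T cells, 158 of 548, held 3 of 610 UMIs.

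The remaining T cells were few or low. Cells with both Cd4 and Cd8 UMIs numbered 1 with CD4 depletion, 9 with anti-CTLA-4, 3 with IgG and 3 in healthy brain, and 3 of the 9 with anti-CTLA-4 held 47 Penk UMIs. Whether cells with both coreceptors were doublets was not tested. T cells with none of the gate transcripts had 1 Penk UMI in 321 cells with CD4 depletion, 64 UMIs in 139 with anti-CTLA-4, 3 in 120 with IgG and none in 37 of healthy brain. Of the 64 UMIs with anti-CTLA-4, 54 were in 1 cell, which also had 65 UMIs of Ccl1. Ordered by level, the anti-CTLA-4 library ran from the Cd4 and Cd8 cells (454 CPM) and Foxp3 T cells (434 CPM), whose intervals overlap, to conventional CD4 T cells (314 CPM), the cells with none of the transcripts (86.0 CPM) and CD8 T cells (2.14 CPM). The first of these values came from 9 cells, with 28 of their 47 UMIs in 1 cell. Without the top cell of each kind, the Cd4 and Cd8 cells stood at 264 CPM, below the 300.0 CPM of Foxp3 T cells. In the IgG library conventional CD4 T cells (239.7 CPM) stood above Foxp3 T cells (69.0 CPM), and they did so too without the top cell of each kind, at 138 and 50.3 CPM. The shares, 7.87% in conventional CD4 and 8.94% in Foxp3 T cells, stood in the other order with overlapping intervals. Of the conventional CD4 UMIs left without the top cell, 56 were in the type 2 lymphoid-like cell and 29 in 1 other cell. By sub-cluster the IgG levels also stood in the other order. They were 231 CPM in the regulatory T-like and 89.4 CPM in the Ccl1-led sub-cluster, where 43 of the 51 IgG cells were conventional CD4 T cells. Each of these levels rested largely on 1 cell, with 70 of 125 and 29 of 34 UMIs. Without that cell the levels were 103 CPM in the regulatory T-like and 13.9 CPM in the Ccl1-led sub-cluster.

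Depth followed the order of the shares in Foxp3 T cells, with a median of 3845 UMIs with CD4 depletion, 4759 with anti-CTLA-4 and 4050 with IgG. Among conventional CD4 T cells the anti-CTLA-4 library had the higher share and the lower depth, 5158 UMIs against 6482 with IgG. In CD8 T cells the median depth was 4385 UMIs with CD4 depletion, 7631 with anti-CTLA-4 and 6999 with IgG, and the deepest library had the lowest share. After thinning each cell to 1000 UMIs, Foxp3 T cells had Penk in 0.694% of cells with CD4 depletion, 11.8% with anti-CTLA-4 and 5.79% with IgG. Conventional CD4 T cells had it in 7.14% with anti-CTLA-4 and 3.41% with IgG. In CD8 T cells it was 0.839% with CD4 depletion and 0 with anti-CTLA-4 and with IgG. The order of the libraries in Foxp3 and conventional CD4 T cells was the same as before thinning, and in CD8 T cells too few counts were left to read one.

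The T cells were also clustered on their own into 15 sub-clusters, on all variable genes, so Penk's level in a sub-cluster is a description. The 2 sub-clusters with most Penk held 753 of the 905 T cell UMIs, or 83.2%, and 20 of the 22 T cells with at least 10 UMIs, 10 each. One was the regulatory T-like sub-cluster, led by Izumo1r, Tnfrsf4, Foxp3, Il2ra and Ikzf2, in which Penk itself ranked 5 by fold. When the clustering was repeated without Penk, 249 of its 255 cells came together again as a sub-cluster of 249. The other, with 205 cells, was led by Ccl1, Ccl3, Lgals7, Spp1, Csf2 and Il21. Ccl1 and Ccl3 encode chemokines, Csf2 encodes GM-CSF, and Il21 is a cytokine of helper T cells. No marker list named this sub-cluster. It had 14 Penk UMIs in 3 of 42 cells (60.6 CPM) with CD4 depletion, 320 UMIs in 21 of 111 cells (478 CPM) with anti-CTLA-4 and 34 UMIs in 3 of 51 cells (89.4 CPM) with IgG. With CD4 depletion all 14 UMIs were in its 22 CD8 T cells, and its 10 conventional CD4 T cells had none. With anti-CTLA-4, 88 of the 111 cells were conventional CD4 T cells, with 249 of the 320 UMIs. Library and kind of T cell therefore cannot be told apart between these 2 levels. Of the 34 UMIs with IgG, 29 were in 1 cell, and without it the level was 13.9 CPM. The anti-CTLA-4 level of this sub-cluster and that of the regulatory T-like cells (445 CPM) had overlapping intervals.

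The type 2 lymphoid-like sub-cluster came next. In its 24 IgG cells Penk had 61 UMIs in 5 cells (370.6 CPM), 56 of them in 1 cell, and it had none in 4 cells with CD4 depletion and 4 with anti-CTLA-4. A sub-cluster of 142 cells led by Gm156, Ifitm1, Gzmf, Ccl4 and Klre1, which no marker list named, held 42 Penk UMIs in 9 cells. Gzmf encodes a granzyme and Ccl4 a chemokine of cytotoxic cells. It had 8 UMIs in 4 of 52 cells (20.6 CPM) with CD4 depletion, 29 UMIs in 2 of 66 cells (46.5 CPM) with anti-CTLA-4 and 5 UMIs in 3 of 24 cells (22.1 CPM) with IgG. Of the 29 UMIs with anti-CTLA-4, 28 were in 1 cell with both Cd4 and Cd8 UMIs, and without it the level there was 1.69 CPM. Most of its cells were CD8 T cells, 51 with CD4 depletion, 60 with anti-CTLA-4 and 22 with IgG, and all 5 Penk UMIs of the IgG CD8 T cells were in it. Another sub-cluster, which came almost wholly from the library with CD4 depletion, 206 of 210 cells, had 18 UMIs in 8 cells (21.7 CPM there), and for it the library and the kind of cell cannot be told apart. Proliferating-like T cells had 11 UMIs in 4 of 26 cells with CD4 depletion, 3 UMIs in 1 of 15 with anti-CTLA-4 and none in 14 with IgG. A sub-cluster of 62 T cells led by the macrophage genes Apoe and C1qa had Penk in 3 of 29 cells with CD4 depletion, 1 of 19 with anti-CTLA-4 and 0 of 14 with IgG, and the part of macrophage RNA in those cells was not tested.

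In 5 of the 15 sub-clusters no Penk UMI was seen. They include the T cells with NK receptors (0 of 245 cells, which allows a share of up to 1.22%), the naive T-like cells (0 of 188, up to 1.60%) and the type 17 and gamma-delta-like cells (0 of 68, up to 4.41%). The naive T-like cells were 29 with CD4 depletion, 20 with anti-CTLA-4, 23 with IgG and 116 in healthy brain, so they made up most of the 142 healthy brain T cells. The median depth of the naive T-like cells was 6096.5 UMIs, above the 3929.0 of the regulatory T-like ones. The CD8 T-like sub-cluster, led by Gzmk, Ccl5 and Gzma, which encode effector molecules, had 2 Penk UMIs in 219 cells.

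**Figure D3:**
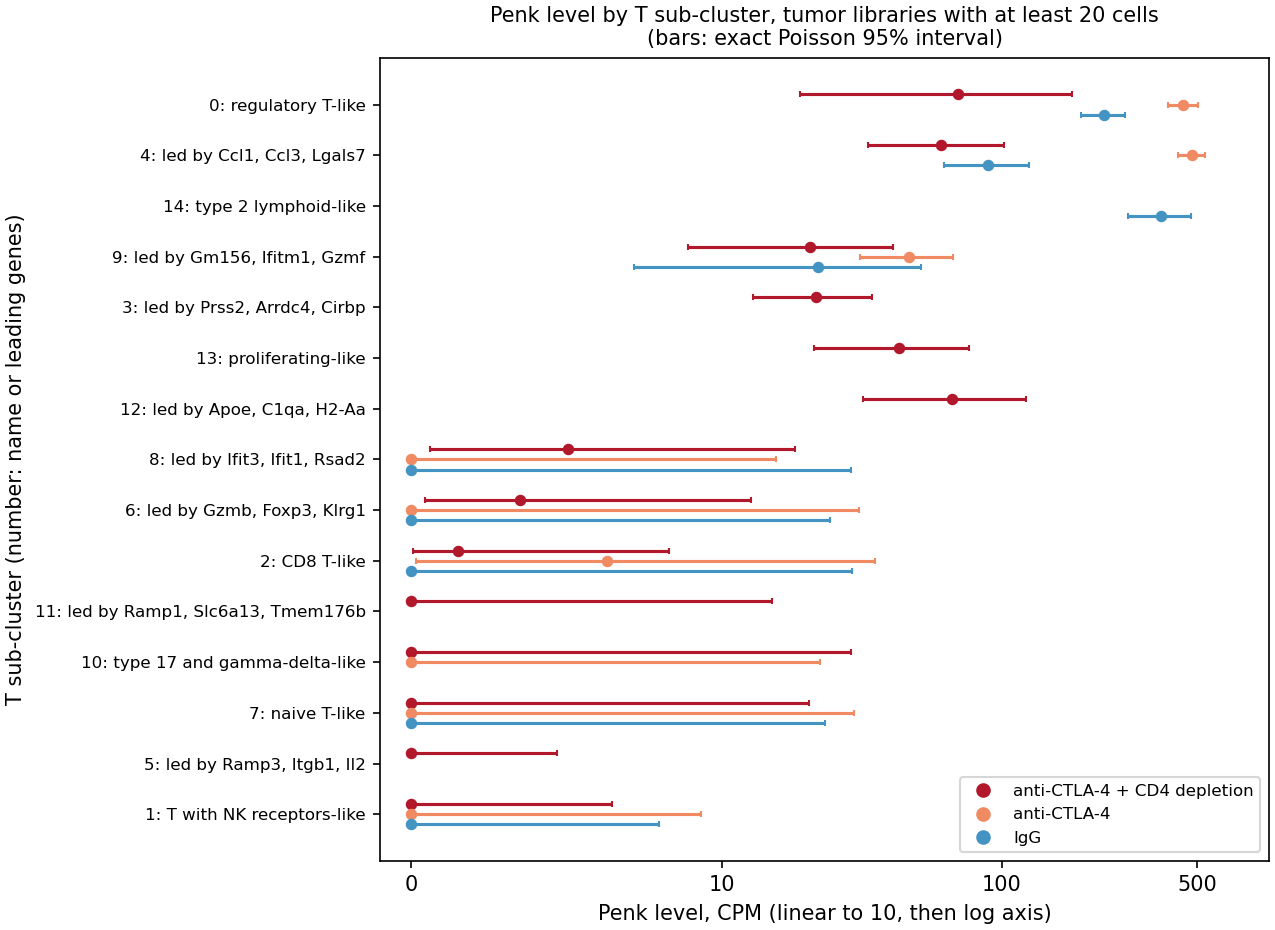
Penk level in CPM in each T sub-cluster (linear axis to 10, log beyond) with exact Poisson 95% intervals, for tumor libraries with at least 20 cells in it; sub-clusters run down the page by their total Penk UMIs. The regulatory T-like and Ccl1-led sub-clusters reach 445 and 478 CPM with anti-CTLA-4, and the naive T-like cells and the T cells with NK receptors sit at 0.

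Other genes of the opioid system were mostly not found in the T cells. Pdyn and Pnoc, which encode the precursors of dynorphin and nociceptin, had no UMI in any T cell, and Pomc, the precursor of beta-endorphin, had 25 UMIs in all, against 905 for Penk. Pdyn had 76 UMIs outside the T cells, at 0.414 CPM with CD4 depletion, 3.23 with anti-CTLA-4, 6.06 with IgG and 0 in healthy brain. The delta, kappa and nociceptin receptor genes Oprd1, Oprk1 and Oprl1 had none, and the mu receptor gene Oprm1 had 5. Outside the T cells Oprm1 had 12 UMIs, Oprl1 had 2, and Oprd1 and Oprk1 had none. Ogfr, the gene of the opioid growth factor receptor, which is structurally unrelated to the classical receptors, was the exception with 655 T cell UMIs. Its level in T cells was 53.1 CPM with CD4 depletion, 50.9 with anti-CTLA-4, 52.4 with IgG and 31.6 in healthy brain. In Foxp3 T cells its log2 ratio of anti-CTLA-4 to IgG was -0.39, beside a median of 0.02 over all genes tested, and it was the 1 receptor gene of 5 with enough UMIs. It did not pass the size rule.

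Genes for precursor cutting were uneven. Pcsk1 and Pcsk2 encode the convertases that cut proenkephalin in neurons, and they had 18 and 0 UMIs in T cells. Cpe, the gene of carboxypeptidase E, had 21. Furin, a convertase of most cell types, had 1041 UMIs, at 44.7 CPM with CD4 depletion, 103 with anti-CTLA-4 and 141 with IgG, and it had 19 UMIs in all in healthy brain T cells. Ctsb, a lysosomal protease gene, stood at 121 CPM with CD4 depletion, 173 with anti-CTLA-4, 177 with IgG and 68.5 in healthy brain. Ctsl, whose product has been described to process proenkephalin in bovine chromaffin cells, stayed between 15.0 and 19.0 CPM in the 4 libraries. Of the 8 genes of this list, 3 could be tested in Foxp3 T cells for anti-CTLA-4 against IgG, and none passed the size rule in either direction, beside 2.79% of all genes. In conventional CD4 T cells 3 were tested for anti-CTLA-4 against IgG and none passed, beside 1.51% of all genes. For IgG against healthy brain 2 were tested and both were higher, where 17.4% of all genes were: Furin at 393 against 8.92 CPM, and Ctsb at 239.7 against 71.4 CPM. Their median log2 ratio was 3.60, against 0.24 over all 2310 genes tested there. The healthy brain cells of this gate were mostly naive T-like, so tumor and kind of T cell cannot be told apart.

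Of 7 genes for enzymes that break enkephalins down, none had enough UMIs for the size rule in Foxp3 T cells in any of the 3 comparisons. In conventional CD4 T cells 2 were tested for anti-CTLA-4 against IgG and none passed, beside 1.51% of all genes. In CD8 T cells 4 were tested for CD4 depletion against anti-CTLA-4 and none passed, beside 2.71% of all genes. With so few tested, nothing is read from these counts. Mme, which encodes neprilysin, had 1 UMI in T cells, Anpep, the aminopeptidase N gene, had 4 and Ace had 3. Ace had 1788 UMIs outside the T cells. The broadly expressed peptidase genes Lnpep, Npepps, Dpp3 and Ece1 had 478, 364, 270 and 140 UMIs in T cells.

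Of 18 regulatory T cell genes, 15 could be tested in Foxp3 T cells, and for anti-CTLA-4 against IgG none passed the size rule, beside the 2.79% of all genes. Their median log2 ratio was 0.37, against 0.02 over all genes. Of the 15, Lrrc32, the gene of the TGF-beta docking protein GARP, had the highest ratio, at 86.5 CPM with anti-CTLA-4 against 47.3 CPM with IgG (1.83, 1.17 to 2.89). Next came Ikzf4, which encodes the transcription factor Eos, at 166 against 106 CPM (1.56, 1.15 to 2.13), then Tnfrsf4 at 1557 against 1078 CPM (ratio 1.44, interval 1.31 to 1.59) and Tnfrsf9, the gene of the costimulatory receptor 4-1BB, at 717 against 497 CPM (1.44, 1.25 to 1.66). Penk's own ratio was 6.29 in these cells and 1.92 in the regulatory T-like sub-cluster, and it was chosen for that difference. For CD4 depletion against anti-CTLA-4, 2 of the 15 were higher and 2 lower, beside 3.98% of all genes in either direction and 2.16% lower. Klrg1, a receptor gene of effector cells, was at 139 against 64.9 CPM, and Itgae, the gene of the integrin CD103, at 348 against 124 CPM. Tnfrsf4 was at 622 against 1557 CPM, and Lrrc32 at 41.2 against 86.5 CPM. Cd4 was at 1.52 CPM with CD4 depletion, against 153 CPM with anti-CTLA-4. These are the Foxp3 T cells whose sub-clusters differ between the libraries as given above. In conventional CD4 T cells 13 of the list were tested for anti-CTLA-4 against IgG, and Il1rl1, the IL-33 receptor gene, was the 1 that passed, at 28.3 CPM with anti-CTLA-4 against 128 CPM with IgG, where 1.51% of all genes passed. Il1rl1 is also a leading gene of the type 2 lymphoid-like sub-cluster, which gave 3 of the 140 conventional CD4 T cells with anti-CTLA-4 and 11 of the 89 with IgG, and the part of those cells in its ratio was not tested. For IgG against healthy brain 9 of 10 tested were higher, among them Tnfrsf4 at 674 against 4.46 CPM, beside the 17.4% of all genes. Of 6 conventional CD4 genes, 5 were tested in conventional CD4 T cells for anti-CTLA-4 against IgG and none passed. For IgG against healthy brain 2 of 4 were higher, with Cxcr6, a chemokine receptor gene of tissue T cells, at 444 against 62.5 CPM. For both lists against healthy brain, tumor and the mostly naive T-like make-up of the healthy brain cells cannot be told apart.

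Of 15 genes for transcription factors linked to Penk transcription in other cells, such as AP-1 and CREB family members, 10 were tested in Foxp3 T cells for anti-CTLA-4 against IgG. Jun, an AP-1 subunit, passed, at 124 against 61.4 CPM (ratio 2.03, interval 1.38 to 2.99), where 2.79% of all genes passed in either direction and 0.833% were higher. In conventional CD4 T cells 11 were tested and Jun again was the 1 that passed, at 67.7 against 32.4 CPM (2.09, 1.25 to 3.60), where 1.51% of all genes did. For CD4 depletion against anti-CTLA-4 none of 9 tested in Foxp3 T cells passed, beside 3.98% of all genes. In CD8 T cells, where Penk's ratio for that pair was 6.37, 14 were tested. Jun was the 1 that passed and it was lower, at 33.9 against 106 CPM (0.319, 0.249 to 0.408), beside 2.71% of all genes. In conventional CD4 T cells, IgG against healthy brain, 3 of 7 tested were higher (Batf, Crem and Nfkb1), beside 17.4% of all genes. Here too, tumor and the mostly naive T-like make-up of the healthy brain cells cannot be told apart.

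Cells with and without a Penk UMI were compared within a gate and library, for the listed genes. The cells with Penk were deeper: their median was 5816 UMIs in Foxp3 T cells with anti-CTLA-4, against 4375 in those without, and 6098 against 4985 in conventional CD4 T cells with anti-CTLA-4. CPM allows for depth, but a deeper cell is also more likely to show a Penk UMI. These are values of single libraries, the genes below were picked after their values were seen, and the intervals cover counting error only.

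In Foxp3 T cells with anti-CTLA-4, Batf, an AP-1 family factor of effector regulatory T cells, stood at 226 CPM in the 17 cells with Penk, against 97.5 CPM in the 85 without, a ratio of 2.31 (1.38 to 3.82). After thinning, 23.5% of the cells with Penk and 5.88% of those without had a Batf UMI. In conventional CD4 T cells with anti-CTLA-4 it stood at 246 CPM in the 21 cells with Penk, against 96.6 CPM in the 119 without, a ratio of 2.55 (1.65 to 3.88). With IgG the Batf ratio was 1.64 (0.781 to 3.11) in Foxp3 T cells and 1.06 (0.465 to 2.12) in conventional CD4 T cells, and both intervals include 1. Whether the ratio differs between the libraries was not tested.

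Other regulatory T cell genes differed little or in both directions. In Foxp3 T cells with anti-CTLA-4, Ikzf2, which encodes Helios, was at 2030 CPM in cells with Penk, against 1458 CPM in those without (1.39, 1.20 to 1.61), and Tnfrsf1b, the gene of the TNF receptor 2, at 234 against 123 CPM (1.90, 1.16 to 3.04). Ctla4, the gene of the antibody's target, was lower, at 363 against 546 CPM (0.664, 0.472 to 0.917). Tnfrsf9 was higher in cells with Penk in both tumor libraries that allow the comparison, by 1.38 with anti-CTLA-4 and 1.69 with IgG. In conventional CD4 T cells the 2 libraries parted. With anti-CTLA-4, Ikzf2 was lower in cells with Penk (0.359, 0.197 to 0.608), and Ifng, the interferon-gamma gene, was higher at 679 against 254 CPM, with 47.1% of its UMIs from 1 cell. With IgG, Ifng had no UMI in the 7 cells with Penk, against 127 UMIs in the 82 without, and Il2ra was 5.09-fold higher (3.25 to 7.86), with 54.3% of its UMIs from 1 cell. The IgG cells are those that included the regulatory T-like and the type 2 lymphoid-like cell. Il10 followed single cells: all 51 Il10 UMIs of the cells with Penk in the anti-CTLA-4 library, and 97.9% of the 47 in the IgG library, came from 1 cell each.

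**Figure D4:**
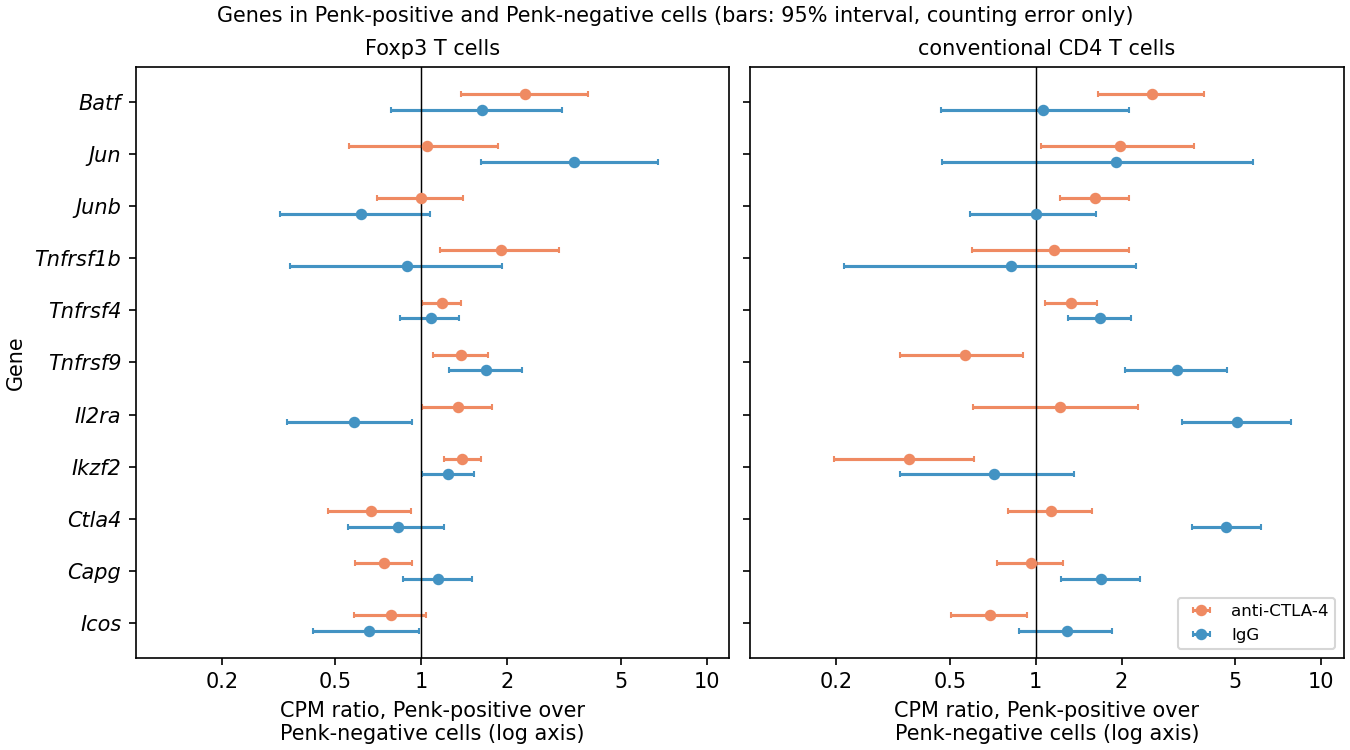
CPM ratio of cells with Penk to cells without it (log axis, 95% interval for counting error) for 11 listed genes, in Foxp3 T cells and conventional CD4 T cells of the anti-CTLA-4 and IgG libraries; the vertical line marks a ratio of 1. Batf lies at 2.31 and 2.55 with anti-CTLA-4, while Il2ra and Ctla4 lie above 4 in conventional CD4 T cells with IgG.

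The genes whose level was most like that of Penk were sought over 32 points, each a T sub-cluster in a tumor library with at least 20 cells, by the Pearson correlation of log2(CPM + 5) among 5295 genes. The points share libraries, depth and the clustering, so the values are a description. The 8 highest were Cd200r1, an inhibitory receptor gene (0.75), Sv2c, a synaptic vesicle protein gene (0.74), Gpm6b (0.73), Fam132a (0.73), Lilrb4a, an inhibitory receptor gene (0.71), Sdf4 (0.71), Fabp5, a fatty acid binding protein gene (0.71), and Rbpj, the transcription factor gene of Notch signalling (0.70). Cd200r1 was at 45.7 CPM with CD4 depletion, 70.3 with anti-CTLA-4 and 35.8 with IgG in Foxp3 T cells, and in CD8 T cells at 22.8 CPM with CD4 depletion, 10.7 with anti-CTLA-4 and 13.3 with IgG. Sv2c was at 6.10 CPM with CD4 depletion, 59.5 with anti-CTLA-4 and 60.1 with IgG in Foxp3 T cells, so these 2 tumor libraries lay side by side for Sv2c and apart for Penk. The list depended on the settings: of the 8 genes, 5 stayed among the first 8 with sub-clusters made without Penk, 2 with Spearman's correlation and 1 with points of at least 50 cells.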

How the data were processed

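Raw counts of UMIs for every gene and barcode were deposited for 10x Genomics 3′ v2 libraries. The version of Cell Ranger, 3.1.0, is named per the file headers and the build, mm10, per the submitters' processing notes. Aligner settings and the annotation release are not given in the sources used here. The 4 libraries held 3916 barcodes and 21471565 UMIs with CD4 depletion, 1874 and 13428840 with anti-CTLA-4, 1484 and 9952379 with IgG and 1420 and 7950206 in healthy brain. The lowest barcode had 500 UMIs. Between libraries 9 barcodes were shared, 1 of them among those with Penk.

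Barcodes under 200 genes or above 10% mitochondrial UMIs were left out. Doublet scores came from Scrublet in scanpy 1.11.5. Its automatic threshold was used for IgG (10 removed) and healthy brain (12), and where it marked under 0.5% the top 5% of scores were removed (169 with CD4 depletion, 90 with anti-CTLA-4). Of 112 barcodes and 947 UMIs with Penk, 109 and 927 remained; 1 removed doublet had 11 Penk UMIs. Leiden clustering (2000 variable genes, 30 components, 15 neighbours, resolution 1) gave 24 clusters without integration. T cells came from the 8 clusters in which at least 20% of cells had a CD3 or Trac UMI, a limit set after seeing the clusters; the lowest of these had 33.3% and the highest of the others 14.3%. Clusters were named "-like" from marker lists, with at least 3 markers among the top 10 genes.

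Ratios of summed CPM carry exact conditional-binomial 95% intervals and shares Clopper-Pearson ones; a count of 0 is taken as 3 counts. All cover counting error only. With 1 library per group there is no test. The size rule and ratio were tried on simulated Poisson counts. Those counts had no clumping within cells, so they do not show how well the intervals hold for Penk. Penk, the gene lists and the gates were chosen with earlier results of these data known. Named are Penk, members of the opioid, processing, breakdown, regulatory T cell, transcription factor and conventional CD4 lists (values mainly for those with at least 20 T cell UMIs), and the 8 genes most like Penk among those with at least 200 UMIs. Sequences were read from the GENCODE vM21 transcripts.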

Additional observations from a re-analysis of the deposited data

How the results depend on the processing

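No paired analysis was possible because each group is 1 library, and for the same reason no replicate could be left out. Over 197 recomputed values 151 moved by less than their interval, 46 moved, and none of the 162 Penk ratios among them came out on the other side of 1. Where 1 side had 0 UMIs this was fixed in advance, since a bound that would cross 1 was given no value. Ratios with 3 or fewer UMIs on both sides were also left out of the 162. In Foxp3 T cells the anti-CTLA-4 to IgG ratio was 3.66 with cells thinned to 1000 UMIs, 3.69 with at least 2 Foxp3 UMIs, 1.92 in the regulatory T-like sub-cluster, also when it was made without Penk, and 3.07 there without the top cells. That of CD4 depletion to anti-CTLA-4 was 0.0191 thinned, 0.160 with 2 Foxp3 UMIs, 0.156 in the sub-cluster (0.153 made without Penk) and 0.125 without Cd8. Both sub-cluster values rested on 4 Penk UMIs in 1 of 20 cells with CD4 depletion, so the second adds no separate support. The ratio of CD4 depletion to IgG was 0.0700 thinned and 0.775 without Cd8. In conventional CD4 T cells anti-CTLA-4 to IgG was 1.67 without the top cells, 1.81 with T cells taken as whole clusters with at least 50% CD3 and 5.44 without regulatory T-like and type 2 lymphoid-like cells. IgG to healthy brain was at least 2.73 thinned, 9.90 without the top cell and 4.80 without those cells. Over all T cells anti-CTLA-4 to IgG was 2.72 without the top cells and 2.81 by whole clusters. Thinned, the all T cell ratios were 0.0399 for CD4 depletion to anti-CTLA-4, 0.0824 to IgG and at least 3.85 for IgG to healthy brain. Thinned shares of all T cells were 0.669% with CD4 depletion, 4.93% with anti-CTLA-4 and 3.20% with IgG. Thinned Penk shares moved in Foxp3 T cells with CD4 depletion (0.694%), in conventional CD4 T cells with anti-CTLA-4 (7.14%) and in CD8 T cells with CD4 depletion (0.839%), anti-CTLA-4 (0) and IgG (0). Thinned CD8 ratios gave no value, with 0 UMIs left with anti-CTLA-4 and with IgG. The settings by 50% CD3 clusters, by sub-clusters made without Penk, without top cells of the sub-cluster, without named sub-clusters and without Cd8 were chosen after seeing the data. No sub-cluster earned a conventional CD4 name, so that gate was not run.

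Genes past the size rule rose with a ratio of 1.5, and with 20 UMIs and no minimum share: to 513 and 501 (Foxp3, anti-CTLA-4 to IgG), 546 and 518 (CD4 depletion to anti-CTLA-4), 861 and 758 (CD4 depletion to IgG), 321 and 387 (conventional CD4, anti-CTLA-4 to IgG), 902 and 1297 (IgG to healthy brain), and 759 and 741 (CD8, CD4 depletion to anti-CTLA-4). Of the genes most like Penk, 1, 2 and 5 of 8 stayed. The causes were not tested. Few cells carry most Penk UMIs, 1 library stands for each group, and the depletion library was shallower, which limits every level given.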
